A study of Arabidopsis thaliana with 54 samples.

Results

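Chlorophyll biosynthesis genes were followed across the day in 3 photoperiods. The genes are HEMA1, GUN4, CHLH, CHLI1, CHLD, CRD1, PORA, PORB, PORC and CAO, 10 of the 32833 gene identifiers in the deposited count table, chosen by identifier for their place in the pathway, with earlier results of these data known. In CRD1, CHLH, GUN4, HEMA1 and CAO the highest group mean fell at ZT20, ZT00 or ZT04 and the lowest at ZT12 or ZT16 in every photoperiod. PORC and CHLD passed none of the tests run, and PORA was at 0 counts in 42 of the 54 libraries.

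The samples were whole wild-type seedlings of the Col-0 (Columbia) accession, grown for 10 days in equinox (EQ), with 12 h light per day. They were then held for 2 days in short days (SD), with 8 h light, in EQ, or in long days (LD), with 16 h light, at 1 temperature and light intensity. All groups share that EQ growth period, and the labels give an age of 12 days. Seedlings were harvested every 4 h from ZT00 to ZT20, where ZT is the number of hours after dawn, and the ZT00 harvest was made in the dark. Each of the 18 groups holds 3 replicates, labelled A, B and C, each a pool of the seedlings of a plate. In pooled whole seedlings, fewer green cells and less RNA per green cell cannot be told apart.

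Chlorophyll is made in plastids from glutamate by way of 5-aminolevulinic acid (ALA), a porphyrin ring and a magnesium insertion that separates chlorophyll from heme. Free intermediates are phototoxic, so plants control entry into the pathway and the magnesium branch closely, and in flowering plants the reduction of protochlorophyllide needs light. HEMA1 encodes glutamyl-tRNA reductase, the entry enzyme. CHLH, CHLI1 and CHLD encode subunits of magnesium chelatase, and GUN4 binds porphyrins and stimulates that chelatase. CRD1 is a subunit of the cyclase that closes the fifth ring. PORA, PORB and PORC are the light-dependent protochlorophyllide oxidoreductases, and CAO turns chlorophyll a into chlorophyll b.

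Stretches upstream of 5 of the genes are shown because CRD1, CAO and CHLH shared a daily course that PORB and PORA did not. They were read from the TAIR10.1 assembly with its RefSeq annotation, run 5′ to 3′ on the gene's own strand, and end at the base before the annotated gene start. The stretches of CRD1 and PORB stop short of 250 bases at the edge of a neighbouring gene. Capitals mark matches to 4 motifs searched on both strands, the evening element AAAATATCT, the CCA1-binding site AAAAATCT, the G-box CACGTG and the I-box GATAAG.
CRD1, chr3:21076316-21076504, plus strand: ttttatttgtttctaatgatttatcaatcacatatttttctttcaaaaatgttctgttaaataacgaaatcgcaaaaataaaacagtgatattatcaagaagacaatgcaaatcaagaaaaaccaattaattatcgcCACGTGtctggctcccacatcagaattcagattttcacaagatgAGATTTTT
CAO, chr1:16851272-16851521, minus strand: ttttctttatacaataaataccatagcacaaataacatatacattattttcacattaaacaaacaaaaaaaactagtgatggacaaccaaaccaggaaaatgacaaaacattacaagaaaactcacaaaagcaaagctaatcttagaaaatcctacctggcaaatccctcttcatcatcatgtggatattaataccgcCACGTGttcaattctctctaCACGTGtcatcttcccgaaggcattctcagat
CHLH, chr5:4392430-4392679, minus strand: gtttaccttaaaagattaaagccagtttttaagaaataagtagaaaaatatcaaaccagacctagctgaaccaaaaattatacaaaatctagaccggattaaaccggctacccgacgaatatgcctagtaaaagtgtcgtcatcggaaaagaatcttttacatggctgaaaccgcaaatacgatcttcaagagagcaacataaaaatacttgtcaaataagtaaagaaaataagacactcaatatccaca
PORB, chr4:13725360-13725545, plus strand: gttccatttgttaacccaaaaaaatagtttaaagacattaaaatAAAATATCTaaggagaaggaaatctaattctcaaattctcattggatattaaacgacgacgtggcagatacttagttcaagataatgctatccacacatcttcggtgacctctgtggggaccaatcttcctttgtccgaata
PORA, chr5:21992815-21993064, minus strand: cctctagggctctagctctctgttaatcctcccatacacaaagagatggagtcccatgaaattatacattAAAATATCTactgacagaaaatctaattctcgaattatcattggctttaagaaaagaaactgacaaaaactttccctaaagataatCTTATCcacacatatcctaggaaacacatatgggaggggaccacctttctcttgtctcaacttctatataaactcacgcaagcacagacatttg
CRD1 and CAO each held a G-box from base -52 to base -47, and CAO held another from -32 to -27. CRD1 also held a CCA1-binding site from -8 to -1. PORB and PORA each held an evening element, from -142 to -134 and from -180 to -172, and PORA an I-box from -94 to -89. GUN4 held a CCA1-binding site from -93 to -86, in a stretch that lies within the neighbouring GCN2, and no motif was matched in HEMA1, CHLH, CHLI1, CHLD or PORC. Of 27438 stretches of the same kind, 6.49% held the G-box, 6.69% the CCA1-binding site, 2.36% the evening element and 12.3% the I-box. A match describes the letters only.

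Library totals over gene identifiers ran from 2430049 to 4124570 counts. Levels are given as counts, or as CPM, counts scaled to a fixed library total after TMM normalization, where a floor of 3 counts in a library lies between 0.689 and 1.16 CPM and covers counting error only. All 6 green tissue markers were detected in every library, with summed levels of 769.8 to 3992 CPM in SD, 915 to 3204 CPM in EQ and 1131 to 4008 CPM in LD. Of 10 root markers, 6 had a mean of 1 count or more and PLT1 was at 0 throughout, and their summed levels overlapped between photoperiods, at 4.22 to 16.3 CPM in SD, 3.69 to 24.8 CPM in EQ and 6.93 to 25.3 CPM in LD. The part of tissue make-up in the results was not tested.

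Mean counts differed between genes with and without an annotated gene on the opposite strand. Of nuclear protein-coding genes without one, 56.2% averaged under 1 count. The share was 26% with an overlap under 200 bp and 13.2% with an overlap of 200 bp or more. What lies behind these shares was not tested. HEMA1 (AT1G58290, chromosome 1, 21623700 to 21626402), CHLH (AT5G13630, chromosome 5, 4387307 to 4392429), CHLD (AT1G08520, chromosome 1, 2696381 to 2701022) and PORA (AT5G54190, chromosome 5, 21990864 to 21992814) have no gene on the opposite strand. CHLI1 (AT4G18480, chromosome 4, 10201672 to 10203469), PORB (AT4G27440, chromosome 4, 13725546 to 13727440), PORC (AT1G03630, chromosome 1, 907523 to 909650) and CAO (AT1G44446, chromosome 1, 16848308 to 16851271) are overlapped over 36 to 121 bp by genes with lower mean counts. GUN4 (AT3G59400, chromosome 3, 21948501 to 21949796) is overlapped over 946 bp by GCN2, a protein kinase gene. CRD1 (AT3G56940, chromosome 3, 21076505 to 21078443) is overlapped over 259 bp by the long noncoding RNA gene AT3G08795 and over 147 bp by the aquaporin gene SIP2;1.

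Counts of GUN4 and CRD1 moved with those of their partners. GCN2 held a mean of 16229 counts against 223 for GUN4, and the ratio of GCN2 to GUN4 counts had a median of 69.8 over the libraries, with a range of 32.4 to 95.5. AT3G08795 held a mean of 3043 counts against 14182 for CRD1, with a median ratio of 0.217 and a range of 0.148 to 0.243. Over the 18 group means of log2(CPM + 0.5), Pearson's r was 0.99 for GUN4 and GCN2, 0.998 for CRD1 and AT3G08795, and 0.95 for CRD1 and SIP2;1. For CAO and its partner AT1G44414, with means of 18.8 and 11.0 counts, r was 0.85. With the partners of CHLI1, PORB and PORC it was -0.50, -0.18 and 0.47. The authors aligned reads with a stranded setting, while the kit is not stated to mark strand, so reads of a gene and of its opposite-strand partner cannot be told apart here. Every GUN4 and CRD1 value below stands for a locus with genes on both strands. HEMA1, CHLH, CHLD and PORA fall in the class without an opposite gene, where 56.2% of genes averaged under 1 count. The green tissue marker RBCS1A held a mean of 1448 counts against 16229 for GCN2. How far low counts and zeros follow transcript levels was not tested.

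**Figure D1:**
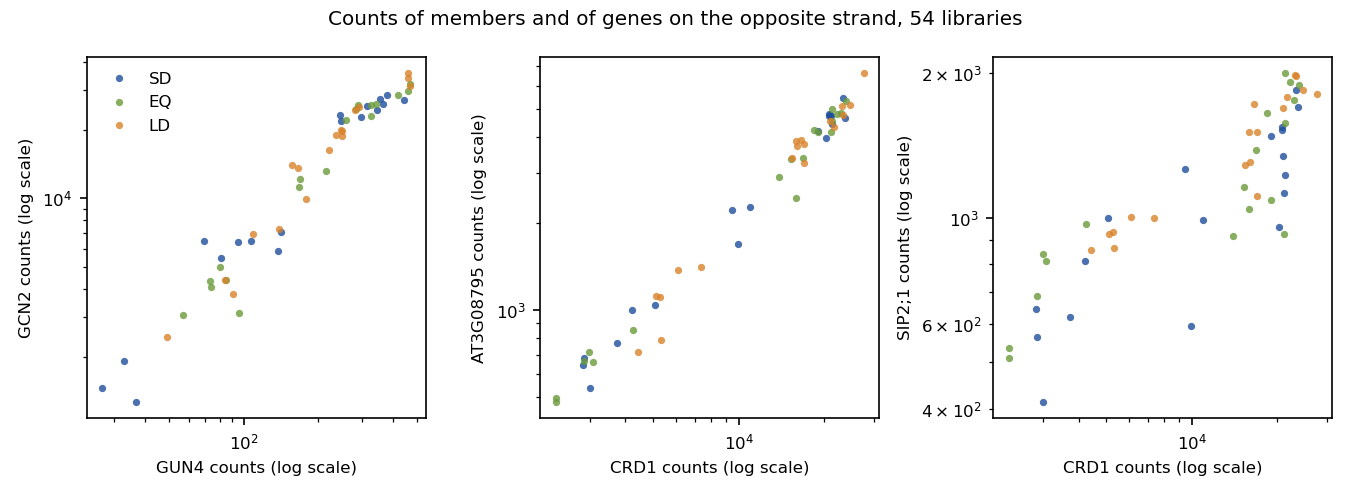
Counts in each of the 54 libraries for the gene and its overlapping partner (GUN4 with GCN2, CRD1 with AT3G08795, CRD1 with SIP2;1), coloured by photoperiod. GUN4 and GCN2, and CRD1 and AT3G08795, lie along a line in all 3 photoperiods, and SIP2;1 follows CRD1 more loosely.

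Per kilobase of exon, the mean level over the 18 groups was highest for CRD1, at 2967 ± 33.1 CPM per kilobase (SE from the 3 replicates of each group), and CRD1 ranked 19 among all identifiers by mean count. GUN4 followed at 53.7 ± 0.753 CPM per kilobase. CHLH at 17.5 ± 0.477 and CHLI1 at 15.3 ± 0.524 CPM per kilobase came next, then PORC at 11.8 ± 0.346. HEMA1 at 5.05 ± 0.180 and PORB at 4.90 ± 0.320 CPM per kilobase differed by less than their errors. CHLD stood at 3.80 ± 0.265, CAO at 2.54 ± 0.210 and PORA at 0.332 ± 0.112 CPM per kilobase. Given the overlaps, this order describes the count table.

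Exact zeros need care in the low genes. CHLD was at 0 in 7 libraries, each in a group in which another replicate had 20 counts or more, as at LD ZT12 with 0, 53 and 43 counts. A 0 beside 20 counts or more also occurred in 4 groups for PORB, 3 for CAO and 1 for PORA. Counting error does not cover spread of that size, so no fold is given against a group at 0.

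Time of day was tested within each photoperiod in 1 edgeR quasi-likelihood fit of all 54 libraries, with p adjusted over the 14115 genes tested. All 10 genes passed the filter on low counts. In SD, 7 genes changed with time of day (CRD1, CHLH, GUN4, HEMA1, CAO, CHLI1 and PORB), where 17.4% of all genes tested did. In EQ, 5 changed (CRD1, CHLH, GUN4, HEMA1 and CAO), against 15.0% of all genes. In LD, 6 changed (those of EQ and CHLI1), against 13.3% of all genes. The adjusted p of CRD1, CHLH and GUN4 was at most 1.4e-09 in each photoperiod, and their calls held under every alternative run.

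**Figure D2:**
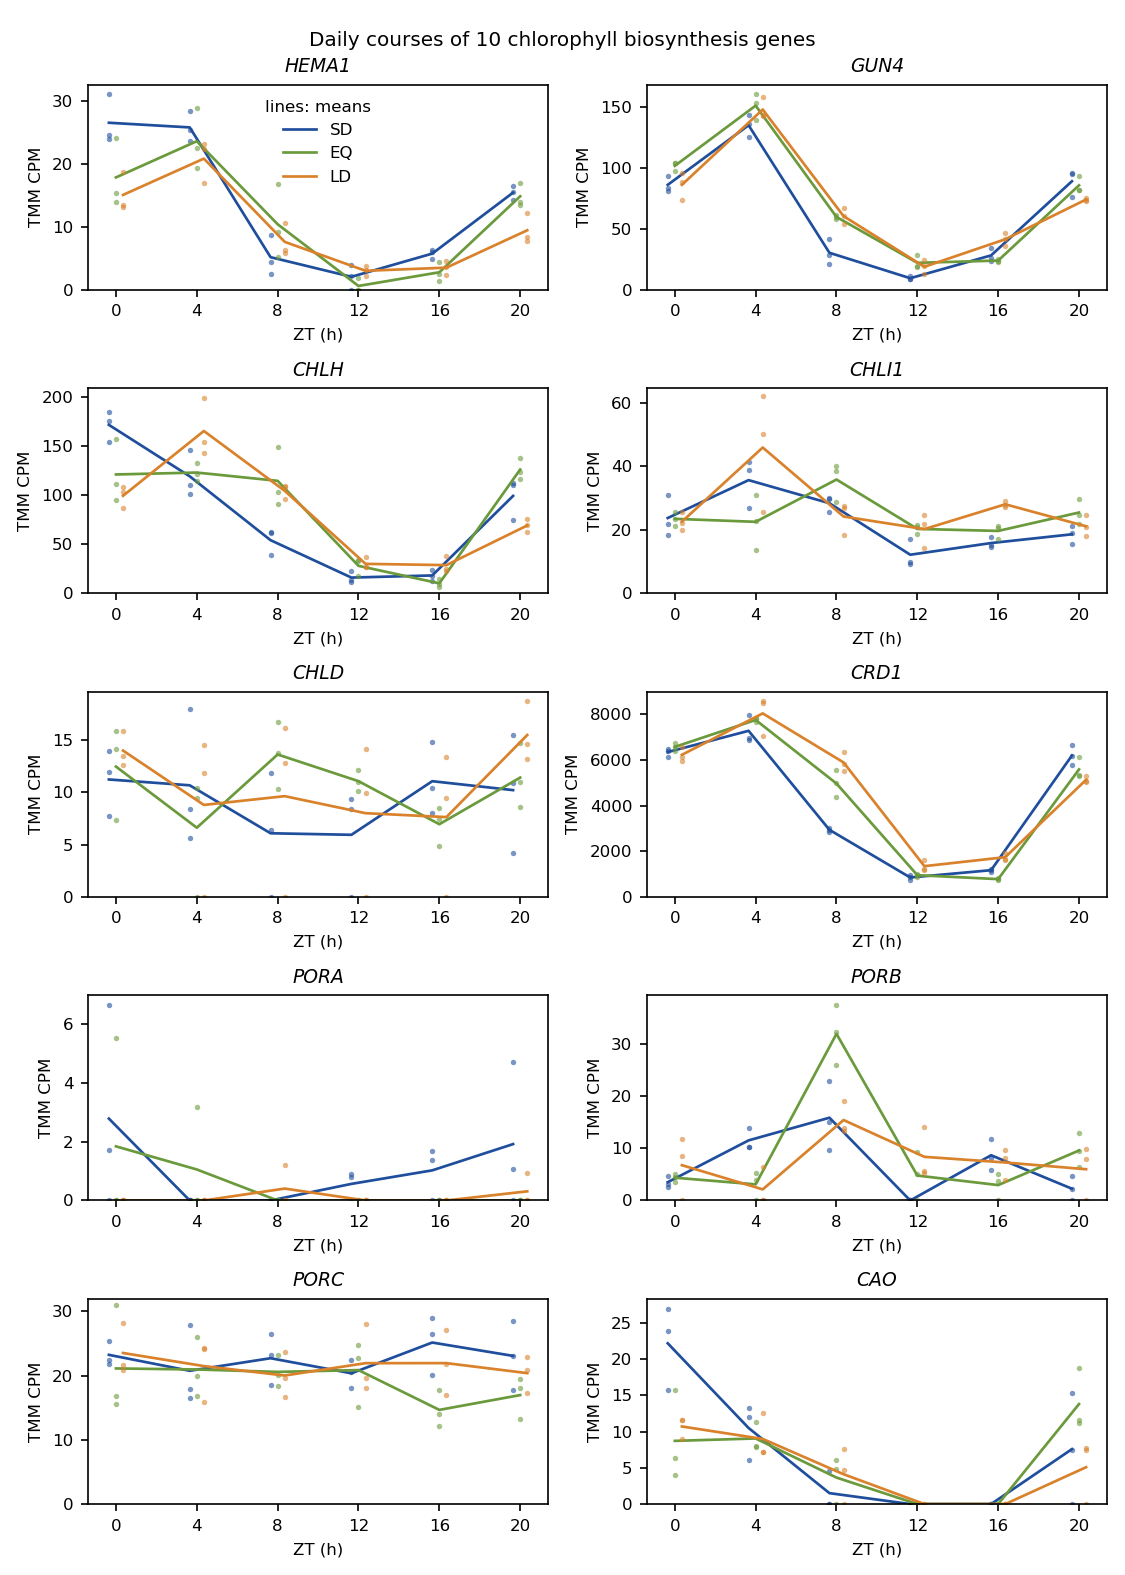
Level in TMM CPM (vertical axes, from 0) against ZT in hours for each of the 10 genes. Points are the 54 libraries, set slightly apart by photoperiod, and lines join the means of 3 replicates in SD, EQ and LD. CRD1, CHLH, GUN4, HEMA1 and CAO are low at ZT12 and ZT16 in each photoperiod, and PORC and CHLD have no such course.

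CRD1, the cyclase subunit, carried the highest counts. In SD it held 6343 ± 181 CPM at ZT00 (mean ± SD, n = 3, as in all such values), 7275 ± 599 at ZT04, 2938 ± 70.6 at ZT08, 849 ± 97.7 at ZT12, 1169 ± 64.2 at ZT16 and 6192 ± 438 at ZT20. The ZT12 and ZT16 libraries lay below all other SD libraries, and the return to the morning level took place in the dark between ZT16 and ZT20. In EQ the means from ZT00 to ZT20 were 6569.9, 7751, 4965, 950.2, 778 and 5583 CPM, and in LD 6224, 8038, 5889, 1346, 1739 and 5128 CPM. The highest group mean, at ZT04 in each photoperiod, was 8.57 times the lowest in SD, 9.96 times in EQ and 5.97 times in LD. The lowest fell at ZT12 in SD and LD and at ZT16 in EQ.

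CHLH, the porphyrin-binding subunit of magnesium chelatase, followed this course with no gene on its opposite strand. In SD its replicates held 451, 679 and 581 counts at ZT00, 449, 331 and 263 at ZT04, 231, 127 and 203 at ZT08, 53, 71 and 39 at ZT12, 87, 73 and 43 at ZT16 and 280, 355 and 407 at ZT20. Libraries of ZT12 and ZT16 overlapped each other and lay below all SD libraries of the other times. In EQ the replicates held 466, 351 and 308 counts at ZT00, 114, 142 and 54 at ZT12, 20, 32 and 44 at ZT16 and 480, 366 and 428 at ZT20. In LD they held 637, 468 and 445 counts at ZT04, 102, 137 and 114 at ZT12, 75, 145 and 77 at ZT16 and 249, 222 and 208 at ZT20. The highest mean fell at ZT00 in SD (171 ± 15.4 CPM), at ZT20 in EQ (126 ± 11.1 CPM) and at ZT04 in LD (165 ± 30.0 CPM). The EQ means of ZT20, ZT00 and ZT04, at 126, 121 and 123 CPM, differed by less than the spread between replicates.

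GUN4, the chelatase activator, peaked at ZT04 in every photoperiod, at 135 ± 9.31 CPM in SD, 151 ± 10.8 CPM in EQ and 148 ± 8.76 CPM in LD. Its SD replicates held 33, 27 and 37 counts at ZT12, below every other group of the series, against 96, 85 and 57 in EQ and 91, 49 and 84 in LD. The highest mean exceeded the lowest 14.3-fold in SD, 6.86-fold in EQ and 7.86-fold in LD. GCN2 on the opposite strand was also highest at ZT04 and lowest at ZT12 by mean in each photoperiod, with 1918, 1460 and 1263 counts at SD ZT12 and 27195, 28532 and 27395 at SD ZT04.

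HEMA1, the entry enzyme, was lower in count and has no overlapping gene. Its SD replicates held 70, 95 and 98 counts at ZT00, 78, 71 and 74 at ZT04, 16, 8 and 29 at ZT08, 15, 7 and 0 at ZT12, 18, 26 and 20 at ZT16 and 54, 53 and 56 at ZT20. Libraries of ZT20, ZT00 and ZT04 lay above those of the other times without overlap. At ZT12 it held 6, 0 and 0 counts in EQ and 8, 12 and 16 in LD. The test for time of day gave SD an adjusted p of 1.5e-04, EQ 1.1e-05 and LD 0.0071. The SD call was lost without replicate B (adjusted p = 0.0702), and the LD call without replicate B (0.345) or C (0.0514).

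CAO, which makes chlorophyll b, was at 0 in all 18 libraries of ZT12 and ZT16. Its highest counts were at SD ZT00, with 46, 92 and 85, against 47, 20 and 13 in EQ and 34, 30 and 38 in LD. At ZT20 its replicates held 0, 49 and 27 counts in SD, 65, 35 and 40 in EQ and 0, 25 and 25 in LD. The test for time of day gave SD an adjusted p of 0.0017, EQ 0.0068 and LD 0.011. All 3 calls were lost without replicate B (adjusted p = 0.219 in SD, 0.337 in EQ and 0.424 in LD), and those of EQ and LD also without replicate C (0.139 and 0.224).

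CHLI1, an ATPase subunit of the chelatase, moved over a narrower range. Its SD replicates held 119, 124 and 70 counts at ZT04 and 35, 55 and 33 at ZT12, and its LD replicates 198, 84 and 145 at ZT04 and 82, 92 and 62 at ZT12. The highest mean was 2.94 times the lowest in SD, 1.82 times in EQ and 2.27 times in LD. The test for time of day gave SD an adjusted p of 1.9e-04, EQ 0.14 and LD 0.0050. The SD call was lost without replicate A (adjusted p = 0.0904), and the LD call without replicate A (0.589) or C (0.195). CHLD, the third subunit, ranged from 0 to 61 counts, with an adjusted p of 1.0 in each photoperiod. Its group means ran from 5.93 to 15.5 CPM, with SDs up to 8.50 CPM.

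The oxidoreductases did not share a course. PORB was highest by mean at ZT08 in each photoperiod, with 85, 32 and 50 counts in SD, 108, 113 and 73 counts in EQ and 38, 63 and 39 in LD. It was at 0 in all 3 libraries of SD ZT12, and the test for time of day gave an adjusted p of 0.022 there, against 0.19 in EQ and 0.78 in LD. The SD call was lost without replicate A (adjusted p = 0.464), B (0.0839) or C (0.275). PORC ranged from 36 to 122 counts over the 54 libraries, with group means of 14.7 to 25.2 CPM and an adjusted p for time of day of 0.54 in EQ and 1.0 in SD and LD. PORA had counts above 0 in 12 libraries, 8 of them in SD, and its highest count was 21, at SD ZT00. The coding sequences of PORA and PORB were 83.2% identical in the TAIR10.1 annotation, with no identical run over 44 bases, and those of PORB and PORC 73.5% identical with no run over 20 bases. How the counting divided reads between these copies was not tested.

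**Figure D3:**
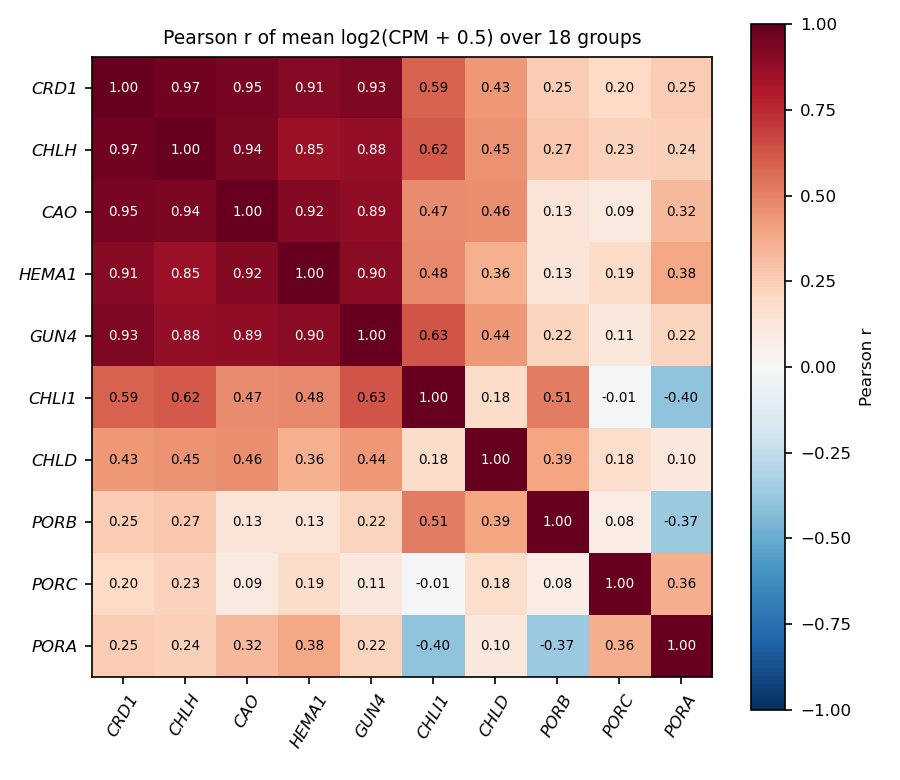
Pearson's r between the daily courses of the 10 genes, each cell giving r of mean log2(CPM + 0.5) over the 18 groups, as a description with no p. CRD1, CHLH, CAO, HEMA1 and GUN4 form a block with r from 0.85 to 0.97, and the highest r of any other gene with one of them is 0.63 (CHLI1 and GUN4).

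As a description over the 18 group means, which share libraries and depth, r among CRD1, CHLH, CAO, HEMA1 and GUN4 lay between 0.85 (CHLH and HEMA1) and 0.97 (CRD1 and CHLH). Of all other genes tested, those most like CHLH were LHCB2.1 (r = 0.98) and LHCB4.2 (0.97), which encode light-harvesting antenna proteins of photosystem II, followed by CRD1 (0.97). CRD1 was most like its partner AT3G08795, then SLD1 (0.99) and AT1G31335 (0.97). AT1G31335 was also the gene most like HEMA1 (0.94), before AT5G24940 (0.93) and PDX1L4 (0.92). GUN4 was most like its partner GCN2, then AT1G05213 (0.97) and DTX1 (0.97). CAO was most like RPB5E (0.98), AT3G08405 (0.97) and AT1G15825 (0.97).

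The remaining genes had looser matches. CHLI1 reached 0.85 with NPQ4, which encodes the photoprotective PsbS protein, 0.84 with ATPD, a subunit of the chloroplast ATP synthase, and 0.84 with CIP7. The genes most like PORB were RPK2 (0.83), AT3G07910 (0.78) and AT1G27210 (0.78). PORC was most like AT3G13160 (0.92), AT2G17975 (0.71) and AT3G55520 (0.71), and CHLD most like AT5G05960 (0.78), FRO1 (0.75) and AT5G63930 (0.75). PORA, mostly at 0, was nearest to AT5G44920 (0.87), AT1G11330 (0.78) and MCM3 (0.77).

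The change at dusk, from the last light to the first dark time point, differed in direction between SD and LD in CHLH, CRD1 and GUN4. After dusk in SD (ZT08 to ZT12), CHLH, CRD1, GUN4 and CHLI1 of the 10 genes fell and none rose, where 5.54% of all genes fell and 4.19% rose. PORB also passed, against a group at 0 in all 3 replicates, and is not counted with these. After dusk in LD (ZT16 to ZT20), CHLH, CRD1 and GUN4 rose and none fell, where 3.65% of all genes rose and 2.48% fell. CAO passed there as well, from a group at 0 in all 3 replicates, and is not counted with them. After dusk in EQ (ZT12 to ZT16), CHLH passed and fell, where 2.93% of all genes fell. The median log2 change over the 7 genes with no group at 0 (all but CAO, PORA and PORB) was -1.31 for SD, -0.29 for EQ and 1.01 for LD. Over all genes it was -0.02 in SD and 0 elsewhere. Since dusk came at different ZT, hours of dark and time of day cannot be told apart in these comparisons.

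For CRD1 the log2 change at dusk was -1.79 ± 0.10 (SE) in SD (adjusted p = 1.2e-16) and 1.56 ± 0.10 in LD (1.2e-14), and in EQ it was -0.29 ± 0.10 (0.084). For GUN4 it was -1.68 ± 0.20 in SD (2.3e-08), 0.84 ± 0.19 in LD (0.0028) and 0.12 ± 0.19 in EQ (0.98). The LD call of GUN4 was lost without replicate A (adjusted p = 0.110) or C (0.140). CHLH changed by -1.76 ± 0.28 on the log2 scale in SD (1.1e-05), by -1.46 ± 0.28 in EQ (3.3e-04) and by 1.27 ± 0.28 in LD (0.0018). The EQ call of CHLH was lost without replicate A (adjusted p = 0.0944) or B (0.0619), and its LD call without A (0.104). Among the overlapping genes, GCN2 changed by -2.03 ± 0.11 in SD and 1.34 ± 0.11 in LD on the log2 scale, and AT3G08795 by -1.72 ± 0.15 in SD and 1.63 ± 0.15 in LD. SIP2;1 changed by -0.82 ± 0.21 in SD (adjusted p = 0.0072) and 0.64 ± 0.21 in LD, where it did not pass (0.065). In EQ, GCN2 rose by 0.53 ± 0.11 (adjusted p = 5.0e-04).

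CHLI1 changed by -1.22 ± 0.28 on the log2 scale after dusk in SD (adjusted p = 0.0017), a call that was lost without replicate A (0.139) or C (0.0932). Its change in LD was -0.41 ± 0.27 (adjusted p = 0.45). PORC changed by -0.16 ± 0.26 in SD and by -0.11 ± 0.26 in LD, and passed in neither. PORB went from 85, 32 and 50 counts to 0 in all 3 replicates (adjusted p = 0.0034), a call lost without replicate A (0.138) or C (0.0503). CAO went from 0 in all 3 replicates at LD ZT16 to 0, 25 and 25 counts at ZT20 (adjusted p = 0.044). That call was lost without replicate A (0.0630), B (0.445) or C (0.309) and without the filter on low counts (0.0664).

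**Figure D4:**
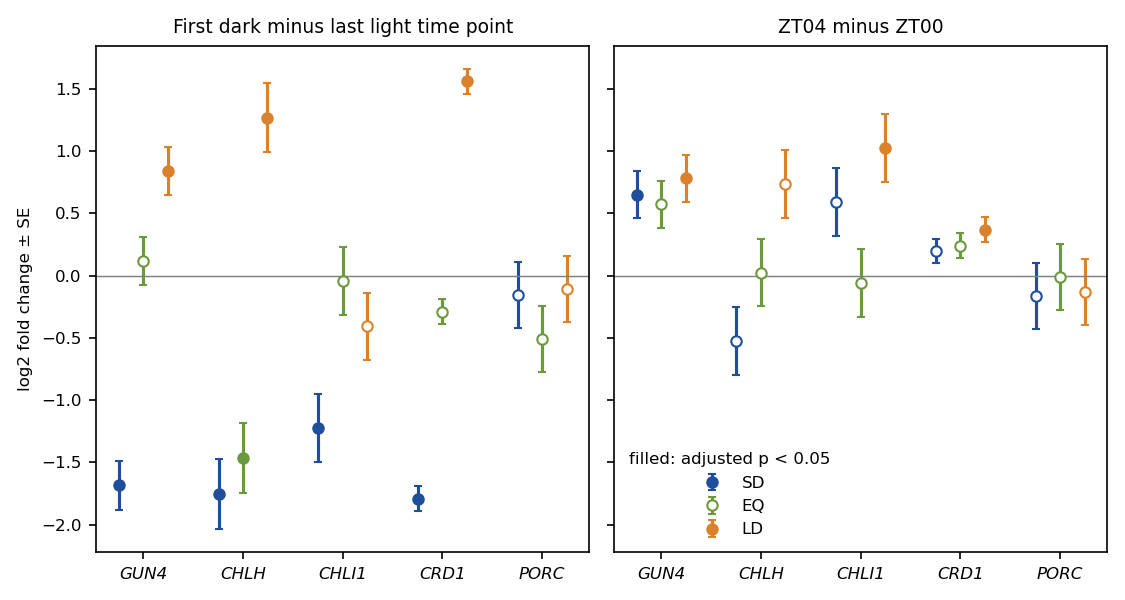
Log2 fold change with its SE for GUN4, CHLH, CHLI1, CRD1 and PORC, from the last light to the first dark time point (left) and from ZT00 to ZT04 (right), in SD, EQ and LD, with filled points for an adjusted p under 0.05. On the left GUN4, CHLH and CRD1 lie below 0 in SD and above 0 in LD.

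At ZT12, dark in SD, the last light point in EQ and light in LD, CRD1 was low in all libraries, at 746 to 941 CPM in SD, 885 to 987 CPM in EQ and 1178 to 1630.2 CPM in LD. At ZT20, in the dark everywhere, it stood at 5762 to 6638 CPM in SD, 5298 to 6118 CPM in EQ and 5042 to 5288 CPM in LD. The SD and LD libraries did not overlap at either time, with SD below LD at ZT12 and above it at ZT20, though neither single time test passed (adjusted p = 0.055 and 0.089).

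The change at dawn, from ZT00 in the dark to ZT04 in the light, was smaller in size than that at dusk for CRD1 and CHLH in SD and LD. It was larger for CHLI1 in LD (log2 change of 1.02 against -0.41) and for GUN4 in EQ (0.57 against 0.12). GUN4 passed in SD, where 4.04% of all genes rose, and CHLI1, CRD1 and GUN4 passed in LD, where 2.33% rose. All of these rose. In EQ edgeR called 0 of the 10, where it called 8.21% of all genes, with an unadjusted p under 0.05 for 2, GUN4 and CRD1, and DESeq2 called 2. GUN4 rose by 0.65 ± 0.19 on the log2 scale in SD (adjusted p = 0.021) and 0.78 ± 0.19 in LD (0.0059), and its change in EQ was 0.57 ± 0.19 (0.052). CRD1 rose by 0.37 ± 0.10 in LD (0.015) and CHLI1 by 1.02 ± 0.27 (0.014). For CHLH the change was -0.53 ± 0.27 in SD (0.28) and 0.73 ± 0.27 in LD (0.12). All 3 LD calls were lost with library totals in place of TMM and without replicate A or C, with adjusted p of 0.0762 to 0.505. The SD call of GUN4 was lost with library totals (0.148), with no filter (0.0668) and without replicate A (0.304), B (0.0699) or C (0.160).

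Whether the daily course itself differed between photoperiods was asked with the interaction of photoperiod and time. It passed for 4 of the 10 genes, CRD1 (adjusted p = 2.9e-10), CHLH (6.4e-05), GUN4 (1.3e-04) and CHLI1 (0.045), where 9.42% of all genes did. The call of CHLH was lost without replicate B (0.0974) and that of GUN4 without replicate A (0.237). CHLI1 lost it without replicate A (0.724), B (0.122) or C (0.617) and with no filter (0.165). HEMA1 had an adjusted p of 0.42 and PORB of 0.20.

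At single time points, each compared in its own 6 libraries, every call fell at ZT08, ZT12 or ZT16. Between SD and LD, 4 of 52 tests of these genes passed, over 6 time points at which 5.22% of all tests passed. The calls of CRD1 and CHLI1 were lower in SD, and the remaining call, of PORB at ZT12, is not read. CRD1 at ZT08 held 2952, 2861 and 3000.0 CPM in SD and 5804, 6356 and 5508 CPM in LD, without overlap, a log2 difference of -1.01 ± 0.08 (adjusted p = 0.011), where 0.583% of all genes passed. At ZT16 it held 1164, 1236 and 1108 CPM in SD and 1601, 1941 and 1677 CPM in LD (-0.53 ± 0.10, adjusted p = 0.022), where 13.7% passed. CHLI1 differed at ZT16 (-0.78 ± 0.18, adjusted p = 0.041), with 15.1, 17.7 and 14.5 CPM in SD and 27.8, 27.1 and 29.1 CPM in LD. PORB at ZT12 was at 0 in SD and at 20, 53 and 25 counts in LD (adjusted p = 0.028), where 13.0% of all genes passed. PORB passed the filter of those 6 libraries through LD alone, so this call is not read. Between SD and EQ at ZT12 it did not pass the filter and was not tested.

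Between SD and EQ, 1 of 50 tests passed, against 3.15% of all tests. GUN4 at ZT12 held 8.68, 8.44 and 11.2 CPM in SD and 28.4, 19.5 and 18.3 CPM in EQ, a log2 difference of -1.20 ± 0.27 (adjusted p = 0.030), where 17.9% of all genes passed. Between EQ and LD, 2 of 51 passed, against 2.53% of all tests, both at ZT16, where 14.2% of all genes passed. These counts lie near the shares over all tests. CRD1 held 774, 816 and 744 CPM in EQ at that time, all below the LD values above (-1.11 ± 0.09, adjusted p = 0.0013). GUN4 held 25.1, 22.9 and 23.9 CPM in EQ and 42.0, 46.8 and 35.6 CPM in LD (-0.74 ± 0.17, adjusted p = 0.039). At ZT16 SD and EQ were in the dark and LD at its last light point. Of the 7 calls, counting the unread one of PORB, that of CRD1 between EQ and LD held under every alternative. The other 6 were each lost without replicate A, B or C, which leaves 4 libraries, with adjusted p of 0.0829 to 0.246. By mean, CRD1 was higher in SD than in LD at ZT00 and ZT20, where the log2 difference was 0.03 ± 0.08 and 0.26 ± 0.06 (adjusted p = 0.97 and 0.089).

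Over the whole day, 2 of the 7 genes with no group at 0 were lower in SD than in LD and none was higher, where 6.23% of all genes were lower and 5.78% higher. The mean log2 difference over the 6 time points was -0.35 ± 0.04 for CRD1 (adjusted p = 3.2e-08) and -0.40 ± 0.08 for GUN4 (2.0e-04), and both calls held under every alternative. GUN4 was also lower in SD than in EQ (-0.39 ± 0.08, adjusted p = 0.0013), where 2.18% of all genes were lower, a call lost without replicate A (0.147). CRD1 was lower in EQ than in LD (-0.29 ± 0.04, adjusted p = 3.9e-05), where 0.836% of all genes were. These comparisons share libraries with each other. For CHLH the SD to LD difference was -0.28 ± 0.11 (adjusted p = 0.10) and for CHLI1 -0.30 ± 0.11 (0.073). HEMA1 gave 0.24 ± 0.27 (0.81) and PORC 0.06 ± 0.11 (1.0). CAO, PORA and PORB, with whole groups at 0, have no usable mean of logs. The median over the other 7 genes was -0.28, against -0.06 over all genes. GCN2 (-0.47 ± 0.04), AT3G08795 (-0.32 ± 0.06) and SIP2;1 (-0.42 ± 0.09) were lower in SD than in LD as well.

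The daily expression integral (DEI), the area under the daily course of CPM, weighs the high times more than the mean of logs does. The log2 ratio of DEI between SD and LD was -0.20 ± 0.04 (SE) for CRD1, -0.18 ± 0.06 for GUN4, -0.27 ± 0.13 for CHLI1 and -0.06 ± 0.09 for CHLH. It was 0.44 ± 0.11 for HEMA1 and 0.53 ± 0.29 for CAO. HEMA1 at ZT00 held 23.9, 24.6 and 31.1 CPM in SD and 18.7, 13.1 and 13.4 CPM in LD, without overlap, though the single time test did not pass (adjusted p = 0.34). For PORB the ratio was -0.14 ± 0.26, for PORC 0.07 ± 0.09 and for CHLD -0.20 ± 0.28, each within its error of 0. Between SD and EQ it was -0.23 ± 0.05 for GUN4, -0.10 ± 0.04 for CRD1, 0.20 ± 0.13 for HEMA1 and -0.44 ± 0.21 for PORB. Between EQ and LD it was -0.09 ± 0.04 for CRD1, 0.05 ± 0.04 for GUN4 and 0.24 ± 0.14 for HEMA1. For PORA, above 0 in 2 LD libraries, no ratio is read. These ratios carry no test.

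**Figure D5:**
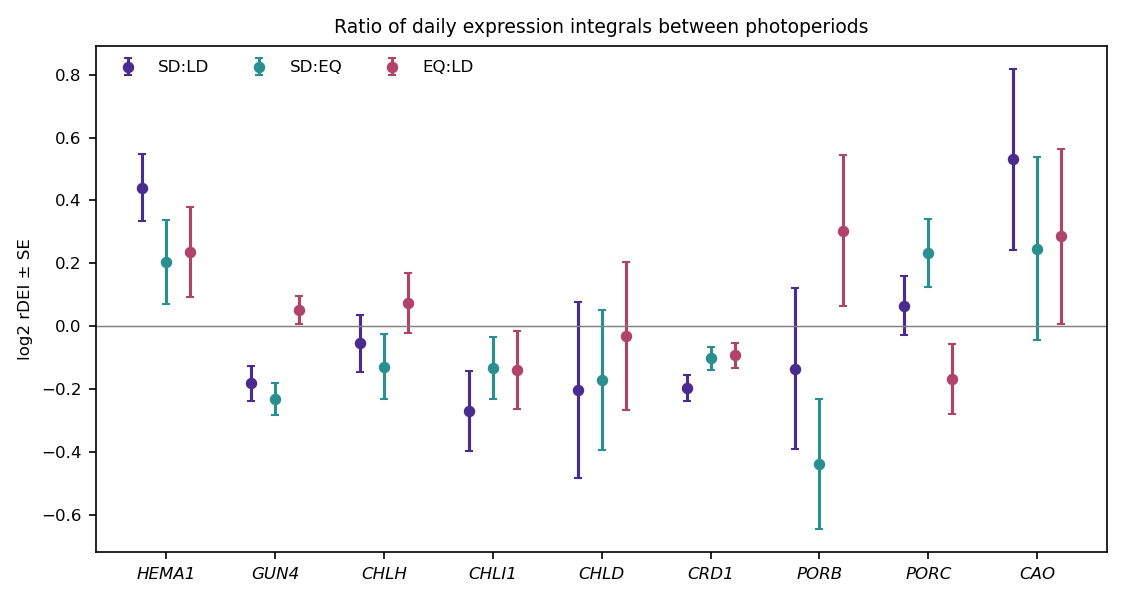
Log2 ratio of the daily expression integral (log2 rDEI) with its SE for SD to LD, SD to EQ and EQ to LD in 9 of the 10 genes, with PORA left out. In SD to LD, CRD1 and GUN4 lie below 0 and HEMA1 above 0, and CHLH, CHLD, PORB and PORC lie within 1 SE of 0.

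Of 52 other genes of tetrapyrrole metabolism and its transcriptional regulators, 40 passed the filter. Time of day passed for 7 of them in SD, 5 in EQ and 5 in LD, close to the shares of all genes (17.4%, 15.0% and 13.3%), so the list as a whole did not stand apart. Of the 6 other magnesium branch genes, CHLI2 and CHLP passed in all 3 photoperiods, and of the 10 tested ALA and porphyrin genes PPO1, protoporphyrinogen oxidase, was the only one to pass in any. CHLP, geranylgeranyl reductase, which supplies the phytyl tail, had its highest mean at ZT00 in SD (168 ± 12.5 CPM) and LD (94.0 ± 8.26) and at ZT20 in EQ (135 ± 14.4). Its lowest came at ZT12, at 22.2 ± 3.14 CPM in SD, 18.8 ± 3.85 CPM in EQ and 23.9 ± 6.54 CPM in LD. CHLI2, the other gene for the CHLI subunit, was highest at ZT08 in SD (82.0 ± 4.69 CPM) and EQ (87.0 ± 10.6) and at ZT04 in LD (82.3 ± 11.4), and its coding sequence is 81.8% identical to that of CHLI1. PPO1 was highest at ZT04 in SD (82.2 ± 6.35 CPM) and at ZT08 in EQ (99.6 ± 4.84) and LD (96.0 ± 8.63). HY2, which makes the phytochrome chromophore, was lowest at ZT00 in SD, at 16.8 ± 3.12 CPM, and highest at ZT04, at 56.8 ± 7.36 CPM. CHLI2, CHLP, PPO1 and HY2 also have genes annotated on the opposite strand.

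Day-wide, CHLI2 and PPO1 were lower in SD than in LD and none of the 40 was called higher, where 6.23% of all genes were lower and 5.78% higher. CHLI2 differed by -0.46 on the log2 scale (adjusted p = 1.1e-06) and was also lower than in EQ (-0.32, 0.0012), and PPO1 differed by -0.23 (0.011). HEME1, uroporphyrinogen decarboxylase, and CLH1, a chlorophyllase, passed between SD and LD with means of 6.09 and 6.07 counts and 32 and 28 libraries at 0. Each was at 0 in all replicates of 3 SD time points, so its mean of logs is not usable and these calls are not read. Among 9 transcription factors tested, RVE1, a MYB factor related to the clock genes, passed for time of day in all photoperiods, with 1214, 1229 and 1326 counts at SD ZT00 and 0 in all 3 replicates at SD ZT04. It also has a gene annotated on the opposite strand, AT5G17305. HYH, a bZIP homolog of HY5, had an adjusted p of 0.028 in SD at a mean of 5.91 counts. The 3 regulatory genes of the pathway tested passed in no photoperiod.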

How the data were processed

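Gene expression was measured by RNA sequencing in 54 libraries, 3 replicates in each of 18 groups of photoperiod and time. Per the study's methods, the authors trimmed reads with Trimmomatic 0.39, aligned them to TAIR10 (Ensembl 47 annotation) with HISAT2 2.1.0 and a stranded setting, and deposited raw counts per gene from StringTie 2.1.2 and its prepDE script. The table holds 32833 gene identifiers, and its 92 spike-in rows were left out.

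Counts were fitted in R 4.3.3 with edgeR 4.0.16 by its quasi-likelihood test, with TMM normalization (factors 0.794 to 1.21), filterByExpr at a minimum of 10 counts and Benjamini-Hochberg adjustment over all genes tested, at a threshold of 0.05. All p are two-sided for single contrasts. A fit of 18 group means to the 54 libraries gave the day-wide, time of day (5 degrees of freedom), dusk, dawn and interaction (10 degrees of freedom) tests, and each of 18 single time comparisons was fitted to its own 6 libraries. The SE of a log2 change is its size over the root of its F statistic. DEI was taken by the trapezoid rule over 24 h with ZT00 repeated at the end. The scripts were tested on simulated data. Library totals ranged from 2430049 to 4124570 counts (median 3280065), so genes with few counts per library carry wide counting errors.

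Samples were grouped by their labels. Replicates A, B and C are separate plates per the methods of the study, so p-values measure the spread between plates. Alternatives were DESeq2 1.42.0, size factors of DESeq2 (RLE), library totals, filters at 50 counts and at none, a replicate block, 1 fit over all 54 libraries for single times, and each replicate letter left out. Named genes are the 10 genes, genes opposite to them where a result turns on these, up to 6 other pathway genes with the lowest adjusted p for time of day, every one called day-wide, and the 3 genes most correlated with each of the 10 over the 18 group means. The members and lists were chosen with earlier results of these data known. Sequences, positions and overlaps came from TAIR10.1 with its RefSeq annotation, matched by gene identifier.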

Additional observations from a re-analysis of the deposited data

Results flagged for a closer look

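The daily course differed between SD, EQ and LD by the edgeR interaction test in 4 of the 10 genes. The adjusted p was 2.87e-10 for CRD1, 6.35e-05 for CHLH, 1.25e-04 for GUN4 and 0.0455 for CHLI1. Reads of GUN4 and CRD1 cannot be told apart from those of the genes on their opposite strand. The interaction also passed for GCN2 (adjusted p = 1.8e-11) and AT3G08795 (8.3e-06), and did not pass for SIP2;1 (0.24).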

How the results depend on the processing

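Of 47 calls among the 10 genes, 19 held under every alternative and 0 reversed direction. The cause of the changes below was not tested. With DESeq2, 4 genes were called day-wide between SD and LD (2 in the main test), 9 single time tests passed between SD and LD (4), 4 between SD and EQ (1) and 4 between EQ and LD (2), 3 genes were called at dusk in EQ (1) and 2 at dawn in EQ (0). With the filter at 50 counts, 4 single time tests passed between EQ and LD, 3 genes were called at dusk in EQ, 2 at dawn in SD (1) and 2 at dawn in EQ. With no filter, 0 single time tests passed between SD and EQ, 1 between EQ and LD and 0 genes at dawn in SD. With RLE, 1 gene was called at dawn in EQ. With library totals, 1 single time test passed between EQ and LD and 0 genes at dawn in SD and in LD (3), and log2 rDEI was 0.12 for CHLH in EQ to LD (0.07) and -0.18 for CRD1 in SD to LD (-0.20). With medians of replicates, log2 rDEI in SD to EQ was -0.036 for CHLH (-0.13) and -0.61 for PORB (-0.44). In 1 fit over all 54 libraries, 7 single time tests passed between SD and LD and 5 between SD and EQ. Leaving out a replicate letter gave 0 to 1 genes day-wide between SD and EQ, 4 to 6 for time of day in SD (7) and 3 to 5 in LD (6), 3 to 5 at dusk in SD (5), 1 to 3 at dusk in LD (4), 0 to 0 at dawn in SD, 0 to 3 at dawn in LD and 2 to 3 for the interaction (4). It left 0 single time tests between SD and LD, 0 between SD and EQ and 1 between EQ and LD.

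With the replicate letter as a block, 0 single time tests passed between SD and LD, 0 between SD and EQ and 1 between EQ and LD, and the calls of CAO at dusk in LD (adjusted p = 0.0634) and of CHLI1 for the interaction (0.0510) were lost. The block changed no other call among the 10 genes. The letters were not taken to pair the samples: same-letter deviations correlated at -0.035 to 0.080 over 18 comparisons, and in 0 of these did all 3 pairs exceed 0.1. Over all genes, single time calls between SD and LD numbered 2597 in the main test, 140 with the block and 5095 with DESeq2. PORA, CAO, CHLD and PORB were at 0 in 42, 24, 7 and 11 libraries, and a floor of 3 counts lies between 0.689 and 1.16 CPM, which limits what can be read of their low times. Zeros beside 20 counts or more go beyond counting error.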
